A study of Homo sapiens with 3 samples.

Results

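The RNAs of 8 DEAD and DEAH box helicases were examined for contact with TIA1 in HEK293T cells: DDX17, DDX5, DDX3X, DDX21, DDX6, DDX46, DHX9 and DHX15. The genes were taken by name, and their members were the intervals that overlapped each gene on its own strand in 3 deposited lists. In all, 24 of 2253 reproducible peaks (1.07%) lay in these transcripts, with 231 of 103134 clusters of replicate 1 and 212 of 66222 clusters of replicate 2. A cluster is a stretch of piled-up reads in 1 replicate, and a reproducible peak is an interval that the authors kept from both.

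The method was eCLIP, in which ultraviolet light fixes a protein to the RNA it touches and the fragments pulled down with the protein are sequenced and compared with an input library. HEK293T is a transformed human embryonic kidney line. Both anti-TIA1 replicates and the 1 input, for which the antibody field reads none, came from cells given 600 mJ of light, and no other treatment is named. The labels disagree on whether the replicates are technical or biological, so the spread between replicates may be technical. In 1 protocol the antibody's catalogue number is given to Msi1, while the antibody field and the titles name TIA1. Sites are called TIA1 sites here on the strength of those labels.

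Helicases of this superfamily use ATP to bind and remodel RNA. DEAD box proteins open short duplexes locally, while DEAH box proteins move along a strand. TIA1 favours U-rich RNA and is known for splicing control near weak 5′ splice sites, for translational repression and for stress granules, where several DEAD box proteins are also found. Replicate 1 had 2683407 reads in its library, replicate 2 had 1997817 and the input 2851338, as worked out from the deposited values. Within the 8 genes the median cluster with recovered reads held 8 and 7 reads, so single clusters are imprecise.

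Peaks were unevenly spread over the genes. DDX17 held 11, DDX3X held 5, DDX21, DDX46 and DHX9 held 2 each, DDX6 and DHX15 held 1 each, and DDX5 held none. DDX17 makes up 7.35% of the summed length of the 8 intervals and had 45.8% of their peaks and 76.5% of the reads summed over them. Length is no measure of read number. DDX17 also held 1849 of the 3634 recovered cluster reads of replicate 1 and 1578 of the 2928 of replicate 2. Of the input reads in those clusters it held 383 of 828 and 465 of 865. The part of read number in its peak count was not tested. Sums over peaks count a read again where it spans adjoining peaks, as in DDX17. No cluster of either replicate lay on the opposite strand of any of the 8 intervals.

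A cluster was counted as enriched when the authors' log2 fold over input and their −log10 p were both at least 3. In replicate 1, 27 of the 231 helicase clusters were enriched (11.7%), beside 3.09% of all clusters. In replicate 2, 33 of 212 were enriched (15.6%), beside 5.32% of all clusters. Reads per cluster differ too, since the median over all clusters with recovered reads was 4 in each replicate. A cluster needed at least 13 reads in replicate 1 and 10 in replicate 2 to be enriched. Among clusters with that many recovered reads, 27 of 70 helicase clusters of replicate 1 were enriched (38.6%), beside 43.4% of all such clusters. In replicate 2 the numbers were 33 of 75 (44.0%), beside 52.4%. With that minimum the share in the 8 genes was below that of all transcripts, while without it the share was higher. The part of read number in this was not tested further. No test was made of either share, because clusters of 1 gene are not replicates.

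**Figure D1:**
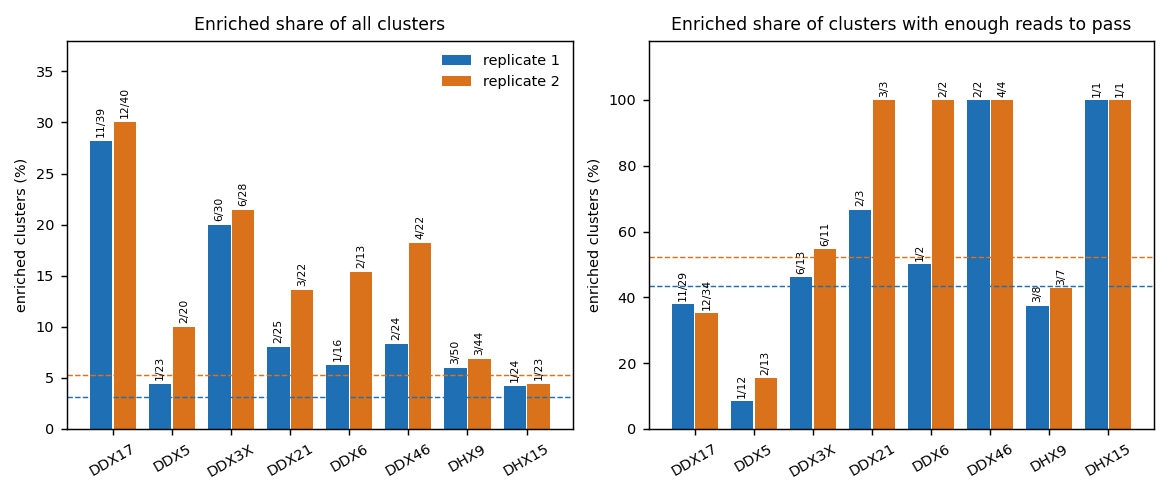
Percent of clusters that were enriched in each gene, over all clusters (left) and over clusters with enough recovered reads to pass (right), for replicate 1 (blue) and replicate 2 (orange). Numbers above bars are enriched clusters over clusters counted, and dashed lines give the same percent over all transcripts. DDX17 and DDX3X stand highest on the left, while on the right DDX5 is lowest with 1 of 12 and 2 of 13.

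DDX17 encodes p72, a splicing regulator and transcriptional coactivator that also takes part in microRNA processing. Its interval lies on the minus strand of chromosome 22 from 38879445 to 38902345 (hg19, 22901 nt). It had 39 clusters in replicate 1, of which 11 were enriched, and 40 in replicate 2, of which 12 were. Enriched clusters held 57.3% of the gene's recovered cluster reads in replicate 1 and 54.7% in replicate 2. Reads were recovered for 30 of the 39 clusters and 34 of the 40. The clusters without recovered reads were not enriched, so these shares are upper limits. The median cluster was not high, with a log2 fold of 1.58 and 1.93, and folds ran from −1.20 to 6.13 in replicate 1 and from −1.66 to 5.56 in replicate 2. Strong sites therefore lay among clusters at or below input in the same transcript.

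The 11 DDX17 peaks fell into 4 places, counting peaks within 1000 nt of each other as 1 place. The first in the direction of transcription held 3 peaks in 384 nt, from 38894009 to 38894392. A lone peak followed from 38887941 to 38888014. Next came 4 peaks in 1394 nt, from 38883796 to 38885189, and then 3 peaks in 701 nt, from 38879589 to 38880289, the last of which ended 144 nt before the 3′ end of the interval. Whether these places are exonic, intronic or untranslated is not analysed here.

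In the first place, the middle peak (38894197 to 38894248) had the highest replicate 1 fold of any helicase peak, a log2 fold of 6.13, and 4.97 in replicate 2 (mean 5.55 ± 0.82, SD, n = 2). It held 66 and 22 reads, and its input number was 1. Its neighbour from 38894009 to 38894056 had log2 folds of 4.73 and 4.97 on 25 and 22 reads over 1. The third, from 38894351 to 38894392, had 4.30 and 4.84 on 37 and 40 reads over 2.

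In the place of 4 peaks, reads were far more numerous. The peak from 38884506 to 38884568 held 389 reads in replicate 1, 236 in replicate 2 and 39 in the input, the most of any helicase peak. Its log2 folds were only 3.41 and 3.11, but its listed −log10 p of 49.95 ranked 19 among all 2253 peaks. That value is below the 67.89 of replicate 1 alone, so it is not a joint value of both replicates. Next to it, peaks from 38885145 to 38885176 and from 38885177 to 38885189 adjoin each other without a gap. The first had log2 folds of 3.90 and 3.61 on 155 and 94 reads over 11, and the second 4.30 and 3.94 on 130 and 75 reads over 7. The last of the 4, from 38883796 to 38883829, had 4.18 and 3.97 on 34 and 22 reads over 2. All 4 were higher in replicate 1, by 0.20 to 0.37 on the log2 scale.

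Near the 3′ end, another pair of adjoining peaks shows what the input does to a fold. The peak from 38879589 to 38879618 had 46 and 33 reads over an input number of 1, and log2 folds of 5.61 and 5.56. The peak from 38879619 to 38879645 had 47 and 33 reads over an input number of 5, and log2 folds of 3.32 and 3.24. Immunoprecipitated reads were almost equal across the boundary, and it was the input numbers that differed. A read that spans the boundary counts in both peaks, so the near-equal read numbers are not separate measurements. Replicate 1 listed the stretch as 1 cluster, from 38879588 to 38879648, with a log2 fold of 3.74 on 63 reads over 5. The third peak, from 38880264 to 38880289, had log2 folds of 3.63 and 4.48 on 35 and 47 reads over 3.

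**Figure D2:**
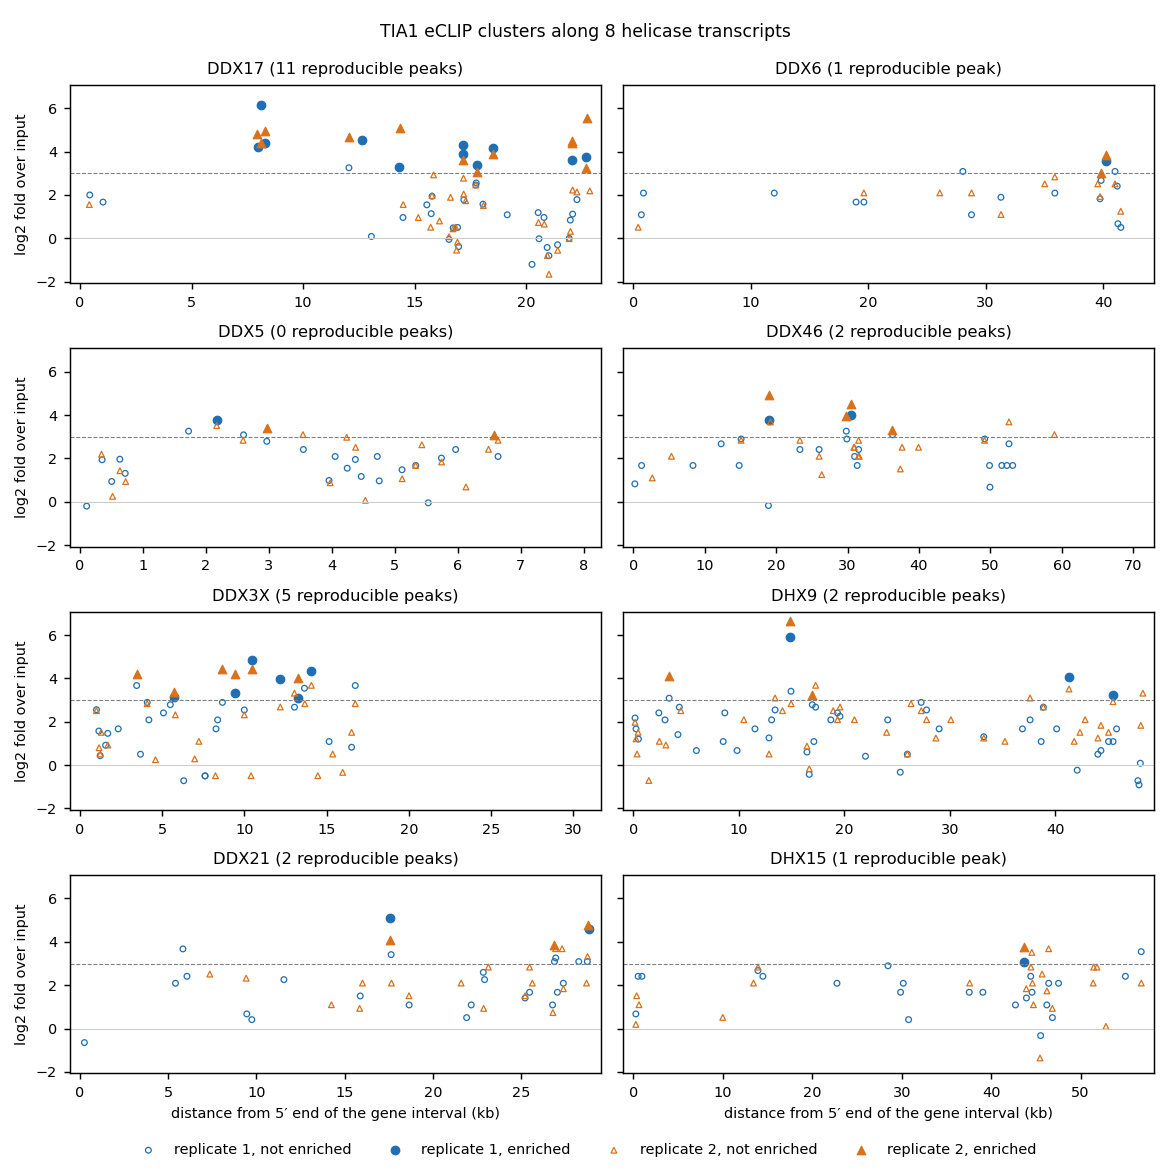
Log2 fold over input of every listed cluster against its distance from the 5′ end of the gene interval in kb, for replicate 1 (blue circles) and replicate 2 (orange triangles). Filled symbols are enriched and the dashed line marks a log2 fold of 3. Enriched clusters of DDX17 lie in a few places from about 8 kb onward, in DDX5 no filled symbols coincide, and DHX9 has 1 site above 5.8 in both replicates.

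The lone DDX17 peak, from 38887941 to 38888014, was where the replicates differed most. Replicate 1 held 107 reads and replicate 2 held 266, over the same 11 input reads, although replicate 2 is the smaller library. Scaled to a library of 1000000 reads this is 39.9 against 133.1. The log2 folds were 3.37 and 5.11 (4.24 ± 1.23, SD, n = 2), which is 10.3-fold and 34.5-fold over input. Replicate 1 thus held 28.7% of the reads of the peak (24.1 to 33.6, exact 95% interval), while it made up 57.3% of both libraries together. An exact binomial test (two-sided) with Benjamini-Hochberg adjustment over the 2247 peaks with recovered reads gave an adjusted p of 1.5e-25. It ranked 1 of the 2247 by p, ahead of a peak at 3.61e-08, and its log2 difference of 1.74 ranked 2 of 2253.

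Both replicates nevertheless placed a cluster there. The bounds came from replicate 2, and the replicate 1 fold was worked out from the listed mean. The own cluster of replicate 1, from 38887946 to 38888028, started 5 nt and ended 14 nt further along the chromosome. It had 110 reads over 12 and a log2 fold of 3.28, close to the value worked out from the mean. Both clusters were enriched, with −log10 p of 19.13 and 75.52. The replicates thus shared the position and the call, and differed 3.34-fold in size. The test covers counting error between these libraries, and the cause of the difference was not tested.

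The same test called 1 other helicase peak, the DDX17 peak from 38894197 to 38894248 (adjusted p = 0.0444, exact binomial test with Benjamini-Hochberg adjustment), where replicate 1 was higher. Hence 2 of 24 helicase peaks differed between replicates beyond counting error, beside 1.82% of all peaks tested and 9.76% of the 297 peaks with at least 100 reads. The lone peak was chosen with earlier results of these data known, so 2 of 24 is not an unselected count to set against those shares. Of the 24, 5 had at least 100 reads. When the chi-square was divided by the dispersion over all peaks, 1.64, the peak at 38894197 lost its call (adjusted p = 0.483) and the lone peak kept it (adjusted p = 5.74e-15). The dispersion of 1.64 was not matched to depth. Chi-square per peak was 4.41 over all peaks with at least 100 reads and 1.22 with fewer. The lone peak held 373 reads, so 1.64 is low for its depth and its adjusted p is likely too small. The peak at 38894197 held 88 reads, so 1.64 is high for its depth. Neither call was tested with a dispersion matched to depth. The 41 calls over all peaks were split between 22 higher in replicate 1 and 19 higher in replicate 2.

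**Figure D3:**
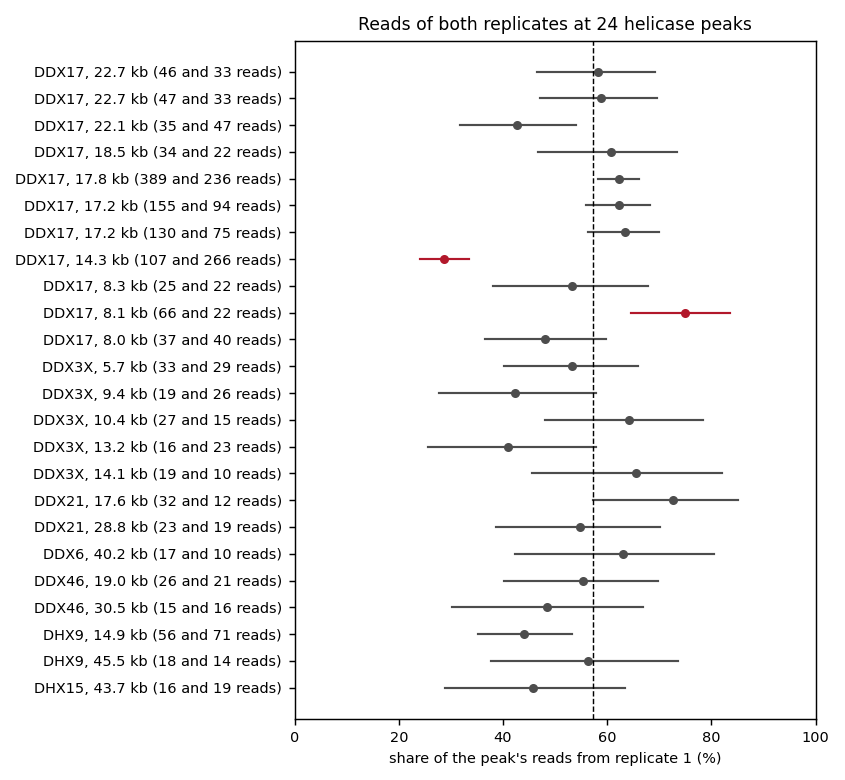
Share of each helicase peak's reads that came from replicate 1, in percent, with exact 95% intervals that cover counting error only. Peaks are named by gene, distance from the 5′ end of the interval and the reads of replicate 1 and 2. The dashed line is replicate 1's share of the library totals (57.3%), and the DDX17 peaks at 28.7% and 75.0%, in red, were those past an adjusted p of 0.05.

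DDX5 encodes p68, the close paralog of DDX17 that shares its roles in splicing, transcription and microRNA processing. Its interval lies on the minus strand of chromosome 17 from 62494374 to 62502484 (8111 nt). It had more clusters per kb than DDX17, 2.84 against 1.70 in replicate 1 and 2.47 against 1.75 in replicate 2, and no reproducible peak. Enriched clusters numbered 1 of 23 in replicate 1 (4.35%, beside 3.09% of all clusters) and 2 of 20 in replicate 2 (10.0%, beside 5.32%). Among clusters with enough recovered reads to pass they were 1 of 12 and 2 of 13, beside 43.4% and 52.4% of all such clusters. None of the enriched DDX5 clusters met an enriched cluster of the other replicate.

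The enriched DDX5 clusters were weak in reads. The cluster of replicate 1, from 62500274 to 62500314, had a log2 fold of 3.79 on 13 reads over an input number of 1. Replicate 2 had a fold of 3.51 there on 8 reads, with a −log10 p of 2.33 that missed the limit. In replicate 2, the cluster from 62499484 to 62499520 had 3.42 on 15 reads over 2, and replicate 1 had 2.79 on 13 reads. That from 62495858 to 62495906 had 3.10 on 18 reads over 3 and met no cluster of replicate 1. The deepest DDX5 cluster, from 62497092 to 62497154, agreed closely at a low level, with log2 folds of 1.67 and 1.68 (its counterpart from 62497086 to 62497156) on 63 and 47 reads over 21. Only 3.38% of the recovered cluster reads of DDX5 in replicate 1 and 10.9% in replicate 2 lay in enriched clusters. The difference between DDX17 and DDX5 was not tested, since each is 1 gene.

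DDX46 and DHX15 act in the spliceosome. DDX46, the human Prp5, works on U2 at the branch site before the spliceosome forms fully, and DHX15, the human Prp43, takes spent spliceosomes apart. DDX46 (chromosome 5, plus strand, 134094468 to 134166000) had 2 of 24 and 4 of 22 clusters enriched. Its higher peak, from 134113442 to 134113504, had log2 folds of 4.79 and 4.91 (4.85 ± 0.08, SD, n = 2), from 26 and 21 reads with an input number of 1. The other, from 134124959 to 134125027, had 3.99 and 4.51 on 15 and 16 reads over 1. DHX15 (chromosome 4, minus strand, 24529087 to 24586184) had 1 enriched cluster of 24 and 1 of 23, at the same place. That peak, from 24542410 to 24542475, had log2 folds of 3.09 and 3.76 (3.42 ± 0.48, SD, n = 2) on 16 and 19 reads over 2. It ended 13323 nt before the 3′ end of the interval.

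DDX3X and DDX6 work on cytoplasmic mRNA. DDX3X promotes translation initiation on structured leaders, and DDX6 represses translation and aids decapping in P-bodies. DDX3X (chromosome X, plus strand, 41192651 to 41223725) had 6 of 30 and 6 of 28 clusters enriched, with 5 peaks that began 5710 to 14072 nt from its 5′ end. The highest, from 41203098 to 41203166, had log2 folds of 4.84 and 4.42 (4.63 ± 0.30, SD, n = 2) on 27 and 15 reads over 1. The other 4 had mean log2 folds from 3.25 to 4.09. Of the 5, 3 were higher in replicate 2, the peaks at 41198361 (33 and 29 reads over 4), 41202094 (19 and 26 over 2) and 41205895 (16 and 23 over 2). The peak at 41206723 had 19 and 10 reads over 1. None of the 5 differed between replicates after adjustment (exact binomial test), and 1 reached an unadjusted p of 0.0494.

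DDX6 (chromosome 11, minus strand, 118618470 to 118661972) had 1 of 16 and 2 of 13 clusters enriched. Its peak, from 118621715 to 118621754, had log2 folds of 4.18 and 3.84 (4.01 ± 0.24, SD, n = 2) on 17 and 10 reads over 1, and ended 3245 nt before the 3′ end of the interval. Replicate 1 listed a wider cluster there, from 118621678 to 118621755, with 22 reads over 2 and a log2 fold of 3.55. A second place, from 118622095 to 118622137, had 3.02 in replicate 2 and 2.67 in replicate 1, on 17 and 18 reads, so it lay on either side of the limit.

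DDX21 and DHX9 work mainly in the nucleus, DDX21 in ribosomal RNA synthesis and processing and DHX9 (RNA helicase A) in unwinding RNA and RNA:DNA hybrids. DDX21 (chromosome 10, plus strand, 70715884 to 70744829) had 2 of 25 and 3 of 22 clusters enriched. The peak from 70744690 to 70744750 ended 79 nt before the 3′ end of the interval, the nearest of any helicase peak. Its log2 folds were 4.61 and 4.76 (4.69 ± 0.11, SD, n = 2) on 23 and 19 reads over 1. The peak from 70733436 to 70733493 had 5.09 and 4.10 on 32 and 12 reads over 1, a difference that passed without adjustment (exact binomial p = 0.0467) and not with it (adjusted p = 0.476).

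DHX9 (chromosome 1, plus strand, 182808439 to 182856886) had the most clusters, 50 and 44, of which 3 were enriched in each replicate. It also had the helicase peak with the highest fold. From 182823334 to 182823385 the log2 folds were 5.89 and 6.66 (6.28 ± 0.54, SD, n = 2), which is 77.7-fold at the mean. The peak held 56 and 71 reads and its input number was 1. It ranked 24 of 2253 by mean fold and 165 by −log10 p. The listed −log10 p of 15.95 equals that of replicate 1, the weaker, and replicate 2 had 25.71. Replicate 2 was higher, and the difference missed the threshold after adjustment (exact binomial test, adjusted p = 0.0955). The other DHX9 peak, from 182853955 to 182854030, had 3.26 and 3.32 on 18 and 14 reads over 2.

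The replicates were then compared over the 24 peaks together. All 24 had a log2 fold of at least 3 in both replicates, which the list's own limits favour, so this is no measure of agreement. The fold was higher in replicate 1 at 11 and in replicate 2 at 13. The median absolute difference was 0.40 on the log2 scale, beside 0.29 over all 2253 peaks, and 6 of the 24 lay beyond 0.78, the 90th percentile of all. Without DDX17 the median difference was 0.50 over 13 peaks. With the fold of each replicate taken from its own overlapping cluster, whose bounds differ, it was 0.64, beside 0.34 over all peaks. Across the 24 peaks the folds had a Pearson r of 0.71 and a Spearman rho of 0.64, and over all peaks 0.81 and 0.78. These are descriptions over peaks that share 1 input, whose reads enter both folds. Peaks were also kept for high folds, which limits the range behind the correlations and the differences.

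**Figure D4:**
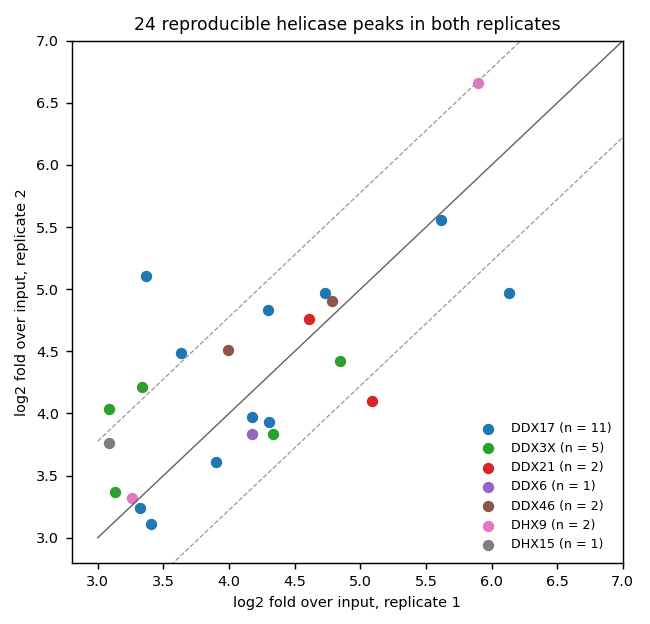
Log2 fold over input in replicate 1 (x axis) against replicate 2 (y axis) at the 24 reproducible helicase peaks, coloured by gene. The solid line marks equal folds and the dashed lines a difference of 0.78, the 90th percentile over all peaks. The DDX17 peak at 3.37 and 5.11 lies farthest from the solid line, with the DDX17 peak at 6.13 and 4.97 on the other side.

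Read numbers were summed over the peaks. Replicate 1 held 1388 of the reads in the 24 peaks and replicate 2 held 1175, so replicate 1 had 54.2%, beside its 57.3% of the libraries. Without the lone DDX17 peak its share was 58.5%. These sums carry no interval, because adjoining peaks share reads: the single replicate 1 cluster from 38879588 to 38879648 holds 63 reads, while the 2 peaks in it list 46 and 47. The chi-square per peak against the library share was 7.75, beside 1.64 over all peaks, and 2.65 without the lone DDX17 peak. These values depend on depth: over all peaks it was 4.41 with at least 100 reads and 1.22 with fewer. At least 100 reads were held by 5 of the 24 helicase peaks, beside 297 of 2247 over all peaks. The part of depth in the difference was not tested. Of the 24 peaks, 11 had an input number of 1, 9 had 2 to 5 and 4 had more. The median was 51.5 reads in both replicates together, beside 44 over all peaks.

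Agreement was also counted over the enriched clusters of each list. Of the 27 of replicate 1, 21 met an enriched cluster of replicate 2 (77.8%), beside 63.4% of all enriched clusters. Of the 33 of replicate 2, 22 met one of replicate 1 (66.7%), beside 57.1%. Without DDX17 the shares were 68.8% and 52.4%, so that of replicate 2 then lay below the share over all transcripts. No test was made, since clusters of 1 gene are not independent. By gene the matched clusters were 10 of 11 and 11 of 12 in DDX17, 4 of 6 and 4 of 6 in DDX3X, 2 of 2 and 2 of 3 in DDX21, and 1 of 3 in each replicate in DHX9. In DDX46 they were 2 of 2 and 2 of 4, in DDX6 1 of 1 and 1 of 2, in DHX15 1 of 1 in each, and in DDX5 0 of 1 and 0 of 2. Some DDX17 matches were pieces of 1 site, and each piece was counted. Replicate 2 clusters from 38879589 and 38879619 both met the replicate 1 cluster from 38879588. Those from 38880264 and 38880279 both met the replicate 1 cluster from 38880264. Replicate 1 clusters from 38885145 and 38885177 both met the replicate 2 cluster from 38885156.

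Most unmatched clusters met a cluster of the other replicate that was not enriched. Of 6 unmatched enriched clusters of replicate 1, 5 met a cluster of replicate 2, whose log2 folds were 2.68 to 3.68 on 8 to 16 reads. In 3 of those the fold reached 3 and the −log10 p did not. Of 11 unmatched clusters of replicate 2, 10 met a cluster of replicate 1 with log2 folds of 2.67 to 3.67 on 7 to 18 reads, and in 6 the fold reached 3 without the −log10 p. The other two had no counterpart: DDX17 from 38889660 to 38889682 in replicate 1 (log2 fold 4.55, 22 reads over 1) and the DDX5 cluster from 62495858 in replicate 2. Many clusters lay near the limit: 7 helicase clusters of replicate 1 and 8 of replicate 2 were enriched with a log2 fold of 3 to 3.5. A further 17 and 10, with log2 folds of 2.5 to 3.5 and a −log10 p of at least 2, were not.

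Clusters at large were shared more in these genes than elsewhere, at 57.6% in replicate 1 and 62.7% in replicate 2, beside 28.9% and 45.0% over all transcripts. The share ran from 41.7% in DDX46 and DHX15 to 79.5% in DDX17 in replicate 1. Read numbers differed between the 8 genes and all transcripts too, with medians of 8 and 7 against 4 and 4 per cluster with recovered reads. Their part in the share was not tested. In 130 overlapping pairs of helicase clusters the median absolute difference in log2 fold was 0.50, beside 0.43 in 29374 pairs over all transcripts, although the helicase pairs had more reads (a median of 22 against 13). Among pairs with at least 50 reads it was 0.41 in 25 helicase pairs, beside 0.34 in 1437.

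Position along the given gene intervals followed no single pattern. Of the 24 peaks, 11 began before the midpoint of their interval and 13 after it, 4 ended within 1000 nt of the 3′ end (3 in DDX17 and 1 in DDX21), and none lay within 1000 nt of the 5′ end. The split at the midpoint depends on the given interval ends. All 5 DDX3X peaks began before the midpoint, but no DDX3X cluster of either replicate lay in the last 14289 nt of that interval. Widths ran from 13 to 87 nt with a median of 58.5 nt, beside 53 nt over all peaks. The median log2 fold was 4.10, beside 4.15 over all peaks, and 11 of the 24 were above the overall median.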

How the data were processed

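The files are interval lists for TIA1 eCLIP in 2 replicates and 1 list of reproducible peaks. The submitters' processing notes name STAR 2.4.0i, SAMtools 1.4.1, cutadapt (1.9.1 and 1.14) and build hg19, with no cluster caller. The lists carry no header, so units were read from the values. The deposited log2 value is the authors' library-scaled fold of immunoprecipitated over input reads, and the deposited −log10 p-value compares the same reads, with a ceiling of 400. In the reproducible list the fold is the mean of both replicates, but the −log10 p is not a joint value. At the DHX9 peak from 182823334, for example, it equals that of the weaker replicate. The input enters only through these values.

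Gene intervals were given as hg19 positions. Overlap was at least 1 nt on the same strand (bedtools 2.31.1). Library totals and read numbers were recovered from the deposited values in Python 3.11.15 with SciPy 1.17.1: the smallest totals that gave both fold offsets were multiplied by 1 to 6, and multiple 3 was kept. For the 200 deepest clusters of each replicate with an input number of at least 5, it returned the −log10 p within 1.86e-05, and the next best multiple within 0.00238. A unique read pair was found for 88.6% (replicate 1) and 93.3% (replicate 2) of clusters. In the helicase genes the rest (23 and 17) had a −log10 p of at most 0.032, so counts of clusters with enough reads leave out clusters below input or close to it. An input number of 1 may stand for 0. At a peak, the replicate that did not supply the bounds was worked out from the mean fold, and reads were taken where whole within 1e-04. Read numbers of both replicates were compared by an exact binomial test with Benjamini-Hochberg adjustment over 2247 peaks, a procedure tested on simulated data; intervals are exact (Clopper-Pearson) and cover counting error only. With 1 input, no test across samples was possible.

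For each gene the peak with the highest fold was described, all peaks of DDX17, and every peak whose replicates differed. The genes, the DDX17 site and the tests were chosen with earlier results of these data known. An annotation and sequence of hg19 were not used here, so other helicase genes, exons and motifs were not analysed.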

Additional observations from a re-analysis of the deposited data

How the results depend on the processing

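Of 34 alternative settings, 19 kept their count within 1.5 times or their value within its error. This tally is lenient. The exact intervals of the matched shares, 57.7 to 91.4% in replicate 1 and 48.2 to 82.0% in replicate 2, treat clusters as independent. Clusters of 1 gene are not, so these intervals are likely too narrow as errors and yet wide as limits. The 19 include the fall of the replicate 2 share from 66.7% to 52.4% without DDX17, and the median difference of 0.64 given below. With stricter limits (log2 fold 4, −log10 p 5) the helicase genes kept 10 and 13 enriched clusters, reproducible peaks fell to 11, and matched shares to 40.0% and 30.8%. At a log2 fold of 1, replicate 2 had 51 enriched clusters. On the opposite strand all 3 counts were 0. Without DDX17, chosen after seeing the data, 16 and 21 enriched clusters and 13 peaks were left, matched shares were 68.8% and 52.4% (beside 63.4% and 57.1% over all transcripts), and 0 peaks differed between replicates (exact binomial and quasi-binomial test; 3 at an unadjusted p under 0.05). Peaks that differed fell from 2 to 1 with the quasi-binomial test and at an adjusted p under 0.01. The median difference between replicates went from 0.40 to 0.64 with own overlapping clusters. Counting the enriched clusters of 1 replicate alone in place of reproducible peaks gave 27 to 33. No paired analysis was possible because 1 group has replicates and the input has 1 library. Input reads are few: the input number was 1 at 11 of 24 peaks, beside 51.3% of all peaks.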
